A study of Mus musculus with 67 samples.

Results

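The regions described here are exonic elements of the mouse genome: chromatin regions that were open to the Tn5 transposase in at least some of the sampled cells and that the deposited annotation placed in an exon more than 1000 bp from the nearest annotated transcription start site (TSS). The distance runs from the center of an element. They were chosen by that annotation alone, without using any accessibility value. They numbered 3511 of 111638 elements with values (3.14%). A total of 6562 elements carried an exon annotation, and the 3051 of them at or within 1000 bp of a TSS were not included. The median mean level of the 69 members within 200 bp outside that limit was 429 normalized counts, and that of the 75 exon elements within 200 bp inside it was 408 normalized counts.

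The study followed the accessible genome of ventral spinal cord progenitors with CaTS-ATAC, a form of ATAC-seq in which fixed and tagmented cells are sorted by the transcription factors they contain. Cells of HM1, a mouse embryonic stem cell line, were taken through a spinal cord differentiation with bFGF and LGK from day 0 to day 2, bFGF, CHIR99021, SB-431542 and DMH1 from day 2 to day 3, and retinoic acid with 0, 10, 100 or 500 nM of the Smoothened agonist SAG from day 3 on. Cells were sorted into neuromesodermal progenitors (NMPs) at day 3, before any SAG, and into the neural progenitor (NP) types p0-1 (0 and 10 nM SAG), p2 (10 and 100 nM), pMN (100 and 500 nM) and p3 (100 and 500 nM) at days 4, 5 and 6. The 67 samples made 25 conditions, 17 with 3 replicates and 8 with 2. Comparisons pooled samples of 1 type and day over SAG, so that samples with the same replicate number entered the same group. The pMN and p3 groups of day 6 held only replicates 2 and 3, each at 100 and 500 nM SAG. The tests between groups count such samples as separate. The study gives its replicates as separate differentiations, and the labels number them. All of them came from 1 cell line. A sorted library averages many nuclei, and in such values fewer cells with an open element and less opening per cell cannot be told apart.

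Exons are read mainly as parts of transcripts, but some also hold enhancers, alternative promoters or binding sites for architectural factors, and the coding sequence around such sites is under constraint from the protein as well. Coding sequence is richer in G and C than most introns and intergenic DNA, and open chromatin near such sequence is often found at CpG islands. Untranslated last exons and internal coding exons therefore differ in composition as well as in position.

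Reads in elements ranged from 9298160 to 29985325 per sample (median 20254011). Levels are given as normalized counts, that is, reads divided by the size factor of the sample, recovered exactly from the deposited log2 values. The TSS elements of the sorted types' marker genes were read first. The mean over NMP samples of the element at the TSS of T, the Brachyury gene, was 1175 normalized counts, against group means of 99.0 to 276 in the NP types. The Olig2 TSS element, which marks pMN, was highest in pMN at each day after day 3, with means of 1358, 1952 and 2325 normalized counts at days 4, 5 and 6. The Nkx2-9 element, which marks p3, had a higher group mean in p3 than in pMN at days 4 and 5 and a lower one at day 6, with 1927, 2376 and 1914 normalized counts in p3 and 1772, 1868 and 2091 in pMN at days 4, 5 and 6. The Irx3 element, listed for p2, was higher in p0-1 at each of these days, with day 6 means of 3014 normalized counts in p0-1 and 2566 in p2. No element was centered within 1000 bp of the TSS of Nkx2-2, Foxa2, Dbx1 or Cdx2, so these markers could not be read. Of 20 marker genes of neurons, floor plate, mesoderm, neural crest and endoderm, 15 had a TSS element and 10 of those had their highest group mean in NMPs, with a summed level of 13502 normalized counts in NMPs and 7621 to 10921 in the NP groups. These values move with the comparison of NMPs and NPs below, and their part in it was not tested.

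For 5 members the central 300 bases are shown, 5′ to 3′ on the strand of the host gene, with exon bases in capitals and other bases in lower case. They are the coding elements with the largest rise and the largest fall from NMPs to day 4 pMN cells (Sox5, Prr19), the coding elements most in favor of p3 and of pMN at day 6 (Usf3, Gabra6), and the strongest coding element (Patz1). Elements ahead of them in rank were passed over where the window held untranslated bases, lay on a chromosome from which no sequence is printed, or belonged to a host absent from the reference. The bases were read from the GRCm38.p6 (mm10) reference of RefSeq at chr6:144155026-144155325 (minus strand), chr7:25303606-25303905 (plus strand), chr16:44217514-44217813 (plus strand), chr11:42314877-42315176 (minus strand) and chr11:3290792-3291091 (plus strand), in that order.
Sox5: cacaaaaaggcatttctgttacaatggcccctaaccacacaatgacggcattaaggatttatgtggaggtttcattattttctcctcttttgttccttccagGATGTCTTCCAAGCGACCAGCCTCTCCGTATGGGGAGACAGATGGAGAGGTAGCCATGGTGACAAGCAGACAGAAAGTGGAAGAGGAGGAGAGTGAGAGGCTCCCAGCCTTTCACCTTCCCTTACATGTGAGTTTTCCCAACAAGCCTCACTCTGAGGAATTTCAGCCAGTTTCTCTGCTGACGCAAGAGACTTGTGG
Prr19: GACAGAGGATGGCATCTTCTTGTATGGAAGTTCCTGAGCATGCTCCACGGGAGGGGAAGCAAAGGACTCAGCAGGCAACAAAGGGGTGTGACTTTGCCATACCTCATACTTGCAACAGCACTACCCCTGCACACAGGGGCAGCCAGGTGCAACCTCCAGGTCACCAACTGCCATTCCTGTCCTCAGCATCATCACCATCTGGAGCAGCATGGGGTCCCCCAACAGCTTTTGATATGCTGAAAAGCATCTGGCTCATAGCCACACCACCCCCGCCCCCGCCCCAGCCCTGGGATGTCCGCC
Usf3: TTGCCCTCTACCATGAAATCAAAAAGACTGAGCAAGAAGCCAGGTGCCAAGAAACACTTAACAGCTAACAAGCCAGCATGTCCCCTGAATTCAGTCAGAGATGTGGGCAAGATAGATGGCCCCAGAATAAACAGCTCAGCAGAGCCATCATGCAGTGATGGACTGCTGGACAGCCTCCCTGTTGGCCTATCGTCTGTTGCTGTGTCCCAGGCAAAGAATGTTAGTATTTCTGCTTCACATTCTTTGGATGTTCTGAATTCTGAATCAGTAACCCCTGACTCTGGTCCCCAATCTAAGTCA
Gabra6: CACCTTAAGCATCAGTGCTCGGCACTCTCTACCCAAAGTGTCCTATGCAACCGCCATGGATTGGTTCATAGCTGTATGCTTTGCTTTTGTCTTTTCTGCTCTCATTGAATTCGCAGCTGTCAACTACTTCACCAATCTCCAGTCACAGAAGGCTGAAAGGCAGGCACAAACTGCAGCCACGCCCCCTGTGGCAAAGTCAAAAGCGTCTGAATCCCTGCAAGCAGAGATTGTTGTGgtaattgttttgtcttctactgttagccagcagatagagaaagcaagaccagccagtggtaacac
Patz1: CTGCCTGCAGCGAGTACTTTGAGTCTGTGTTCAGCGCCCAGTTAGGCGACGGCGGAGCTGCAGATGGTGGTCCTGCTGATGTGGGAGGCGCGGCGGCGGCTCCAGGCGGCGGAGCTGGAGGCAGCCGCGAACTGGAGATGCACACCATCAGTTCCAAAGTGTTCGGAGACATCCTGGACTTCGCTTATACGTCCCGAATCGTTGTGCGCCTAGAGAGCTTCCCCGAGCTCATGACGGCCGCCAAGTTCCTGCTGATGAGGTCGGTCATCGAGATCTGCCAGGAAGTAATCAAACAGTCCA
The Sox5 window held 198 coding exon bases of 300 and 48.3% G or C. The Prr19 and Patz1 windows were wholly coding, with 57.7% and 60% G or C. The Usf3 window was also wholly coding, at 47.3%, and the Gabra6 window held 235 coding bases and 48.0% G or C.

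The members lay in the exons of 3087 host genes, of which 2714 held 1 element, 331 held 2 and 42 held 3 or more. The nearest TSS belonged to another gene than the host for 1551 members (44.2%), and the median distance to the nearest TSS was 14317 bp. Last exons of genes with several exons held 1735 members (49.4%), internal exons 1497, first exons 216 and single-exon genes 63. The midpoint of an element lay in coding sequence for 1975 members (56.3%), in an untranslated part of an exon for 1332 (37.9%) and in a noncoding transcript for 204 (5.81%). The median share of an element's length in exon was 73.2%, 1078 members were wholly in exon, and 1057 (30.1%) had less than 50% of their length there.

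The center of every member was more than 1000 bp from a TSS of the annotation used to choose it. Even so, 730 members (20.8%) contained the start of a transcript in a larger annotation (GENCODE vM21 together with RefSeq). That was so for 6.57% of intronic and 3.84% of intergenic elements at the same minimum distance. Among members it was 96.3% of first exons, 26.3% of internal exons and 5.94% of last exons. It also held for elements named below in Casq2, Tmem161a, Fmn2, Kif7, Hoxb8, Hoxd3 and Lrrfip2 and for Ryr1 exon 48. A wide member can contain the very TSS its distance refers to. The Patz1 element, for example, was 4808 bp wide with its center 1810 bp from the Patz1 TSS. Such starts were not separated from starts that only the larger annotation holds.

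Exonic elements were somewhat stronger than intronic ones and less variable. The median of their mean levels was 48.5 normalized counts (25th to 75th percentile 23.9 to 127, range 3.43 to 7155), against 35.8 for 43044 intronic, 32.7 for 49364 intergenic and 639 for 8271 promoter elements. A mean above 100 normalized counts, the limit used for tests, was reached by 1048 members (29.8%), and a mean above 1000 by 101. They were also wider, with a median of 978 bp against 830 bp for intronic elements, and had a median G and C content (GC) of 52.9% against 47.3%. On the log2 scale of the deposited values, the SD between the 25 condition means had a median of 0.482 in exonic and 0.592 in intronic elements, a ratio of 0.813 (SD of the ratio over the 3 replicate numbers taken singly, 0.0245). The ratio was 0.825 for elements over 10000 bp from a TSS. For elements with a mean above 100 it was 0.504, so it moved by over 1.5 times with that limit.

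The strongest member was an element in Rn45s (chr17:39846648-39847531), the 45S pre-ribosomal RNA, with a mean of 7155 normalized counts over all samples. Ribosomal DNA occurs in many copies whose reads are alike, so this level is uncertain. The next were Patz1 exon 1 of 5 at chr11:3288538-3293345, the gene of a zinc finger transcription factor, with a mean of 4278 normalized counts, and Lars2 exon 21 of 21 at chr9:123461798-123462187, the gene of mitochondrial leucyl-tRNA synthetase, with a mean of 3963 normalized counts. Jund, which encodes a subunit of the AP-1 transcription factor, had a mean of 3537 normalized counts and Sertad2 exon 1 of 2 had 2937. In the 3 NMP samples Patz1 stood at 5275, 5455 and 4389.6 normalized counts, and in the 4 day 6 p3 samples at 3741, 3850.2, 4267 and 3699. None of the 5 was called in any of the 8 comparisons between days and cell types. Rn45s, Patz1, Jund and Sertad2 contained a transcript start of the larger annotation, and Lars2 did not. The most even members with a mean above 100 were Tnfaip8 exon 1 (SD between conditions 0.0752 on the log2 scale), Tcf7l2 exon 2 (0.0888), in the gene of a Wnt-pathway transcription factor, and Klhl31 exon 3 (0.0929). The Tnfaip8 and Tcf7l2 elements also contained such a transcript start, and only 13.2% of the Tnfaip8 element lay in exon. The Klhl31 element contained none. Tnfaip8 had 1846, 1821 and 1606 normalized counts in the NMP samples and 1695, 1668, 1697 and 1604 in day 6 p3, which overlapped.

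The clearest pattern across the members was a fall from NMPs to NPs. The group mean was highest in NMPs for 1954 of the 3511 members (55.7%), against 33.6% of all elements. The median exonic level in a sample, on the log2 scale, was 6.57 ± 0.0350 (SD, n = 3) in NMPs, between 5.84 and 5.93 in the 4 types of day 4 and between 5.72 and 5.75 at day 6. The median intronic level moved the other way, from 4.90 ± 0.108 (SD, n = 3) in NMPs to 5.45 ± 0.0310 (SD, n = 6) in day 4 pMN and 5.49 ± 0.0694 (SD, n = 4) in day 6 pMN. The share of reads that fell in exonic elements was 3.83% ± 0.125 (SD, n = 3) in NMPs, and the mean of the NP groups was between 2.48% and 2.98%.

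The difference between the exonic and the intronic median within a sample was above 0 in 67 of 67 samples, with a mean of 0.399 ± 0.308 (SD, n = 67) on the log2 scale. A sign-flip permutation test over samples gave p = 1e-05, the smallest that 100000 resamples can give (adjusted p = 1.5e-05 over 3 tests, two-sided). The test took the 67 samples as independent. Samples with the same replicate number may share a differentiation and tended to deviate together, so this p-value may be too small. The same holds for the permutation tests that follow. The difference was 1.67 ± 0.140 (SD, n = 3) in NMPs. At day 4 it was 0.573 ± 0.188 (SD, n = 6) in p0-1, 0.421 ± 0.0787 (SD, n = 6) in p2, 0.390 ± 0.0524 (SD, n = 6) in pMN and 0.450 ± 0.116 (SD, n = 5) in p3, so that the samples of the day 4 types overlapped while NMPs stood far above them. When exonic and intronic elements were compared within bins of GC and width, the mean became -0.0451 ± 0.103 (SD, n = 67), with 19 of 67 samples above 0 (permutation adjusted p = 0.00072). The NMP samples kept a difference of 0.272 ± 0.0447 (SD, n = 3) within those bins.

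**Figure D1:**
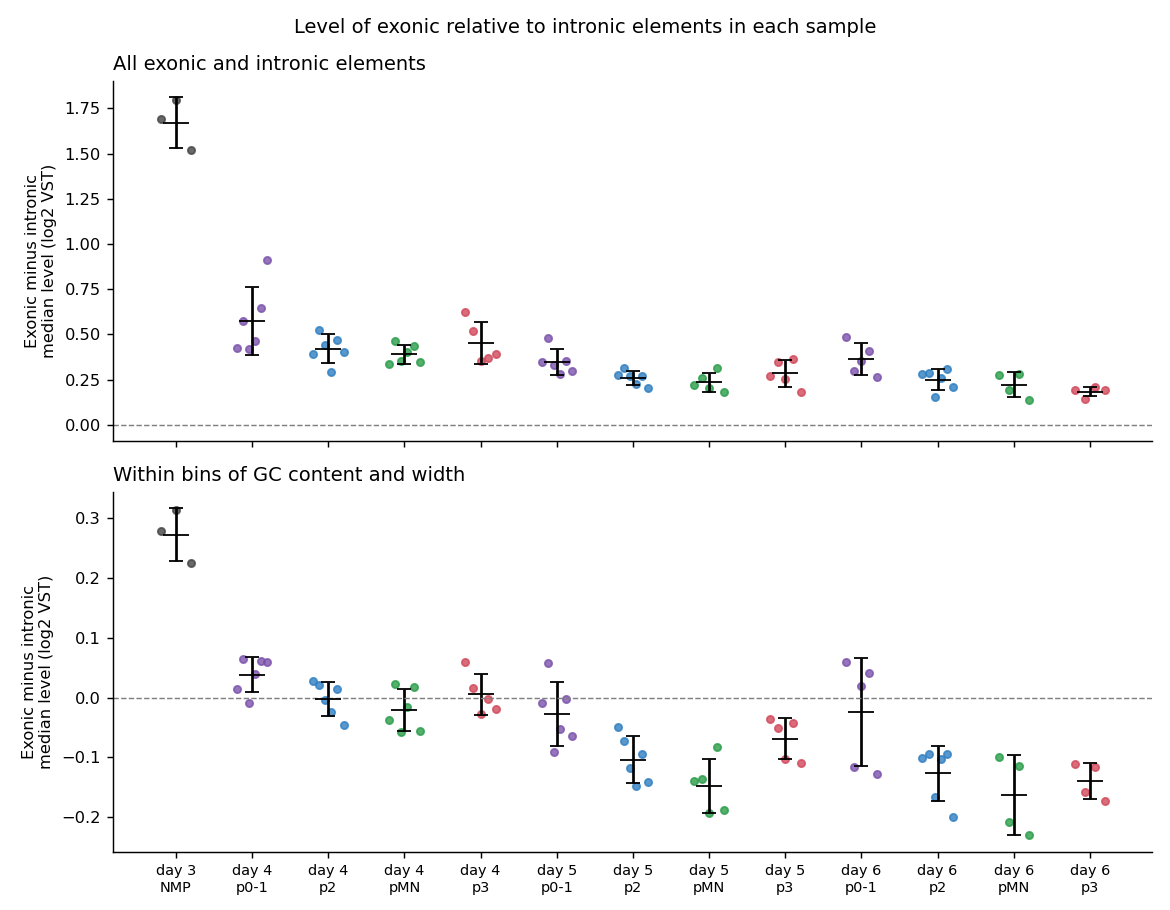
Median level of exonic minus median level of intronic elements in each sample (y axis, log2 scale) by day and cell type (x axis). Points are samples and bars are the mean ± SD of a group, in the upper panel over all elements and in the lower panel within bins of GC and width. NMPs stand at 1.67 in the upper panel and at 0.272 in the lower one, and the day 6 groups lie between 0.184 and 0.362 in the upper panel.

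Among NPs the exonic excess declined with time. From day 4 to day 6 it changed by -0.202 within cell type, with SAG concentrations pooled, over 42 samples (permutation p = 1e-05, the smallest possible, adjusted p = 1.5e-05, two-sided). Within single replicate numbers the change ran from -0.383 to -0.0732, below 0 in 10 of 10. Within GC and width bins it was -0.117 (permutation adjusted p = 3e-05). Between p3 and the other NP types over 64 samples the difference was -0.0318, which did not pass the test (permutation p = 0.32), and within replicate numbers it ran from -0.140 to 0.112. The read-weighted mean GC of a library, which differed with library as well as with type, was 56.7% to 57.5% in the NMP samples. The highest value of all, 57.8%, was in the 10 nM p0-1 library of replicate 3 at day 4, whose exonic excess was 0.910. Whether the GC of a library as sequenced plays a part was not tested beyond the bins.

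Tests between groups were made with limma on the deposited log2 values, for every element whose mean over the samples of both groups exceeded 100 normalized counts. A call required a Benjamini-Hochberg adjusted p under 0.01 and a change of more than 2-fold in mean normalized counts, and "higher" or "lower" refers to the second group named. An element near 0 in 1 group passes the limit on the mean through the other group, so that for such elements a call is nearly given. From day 3 NMPs to day 4 pMN cells, 1275 members were tested. Of these, 708 were lower (55.5%), where 27.3% of all elements tested were lower, and 126 were higher (9.88%), against 21.2% of all. Without the limit on the mean, 1520 of all 3511 members were lower and 700 higher, beside 23.1% and 35.3% of all elements. The median log2 ratio was -1.11 over the members tested and -0.49 over all elements tested. Centering every sample on its median moved the median of all elements to -0.07, and 433 members were then lower and 151 higher, beside 15.8% and 23.5% of all elements, with a median member ratio of -0.68. From day 3 NMPs to day 4 p3 cells 1293 members were tested, 668 were lower and 102 higher, against 27% and 17.8% of all elements, and 389 and 128 after centering, beside 15.2% and 20.1%. Both comparisons use the same 3 NMP samples.

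**Figure D2:**
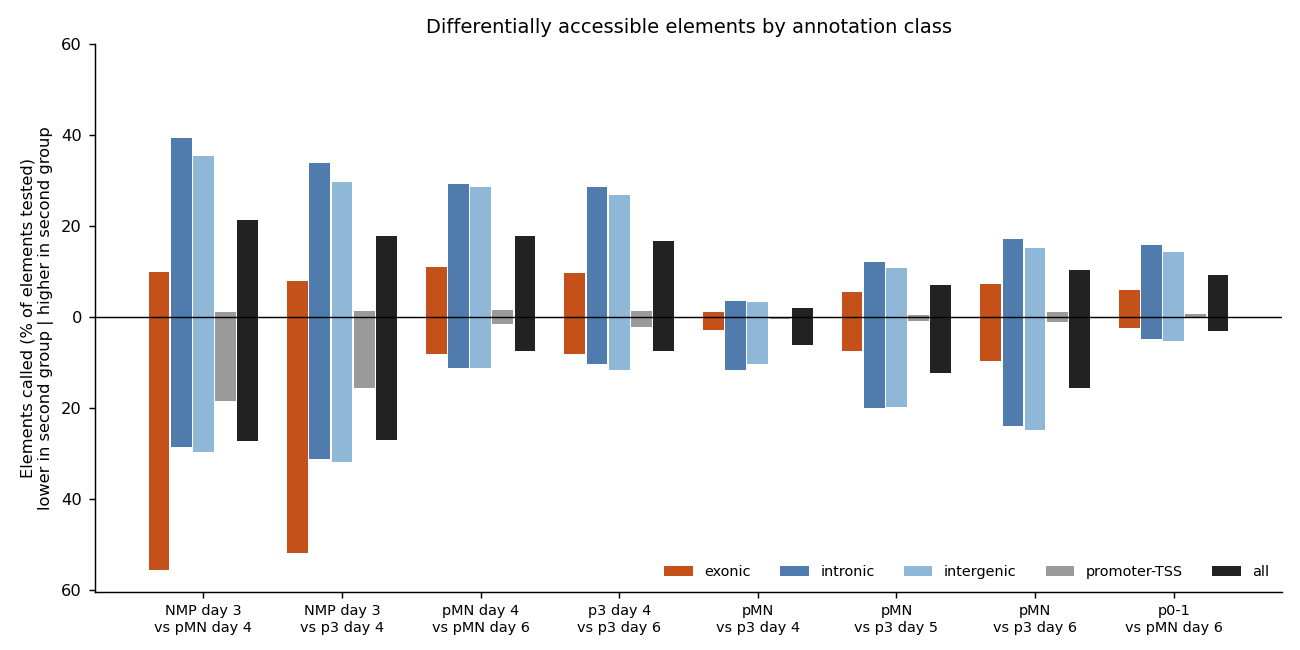
Percent of tested elements called lower and higher (y axis) in exonic, intronic, intergenic and promoter elements for 8 comparisons (x axis). From NMPs to day 4 pMN cells 55.5% of exonic elements were lower, against 28.6% of intronic, 29.6% of intergenic and 18.4% of promoter elements.

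Within the members, the fall was more frequent in coding than in untranslated sequence. From NMPs to day 4 pMN cells 502 of 789 tested elements with a coding midpoint were lower (63.6%), 185 of 437 with an untranslated midpoint (42.3%) and 21 of 49 in noncoding transcripts (42.9%). By position, 64.2% of those in internal exons, 54.8% in last exons and 36.0% in first exons were lower. Elements that contained a transcript start were lower in 50.5% of cases and those that did not in 58.7%. Elements lying wholly in exon were lower in 49.8% and those with less than 50% of their length in exon in 53.0%. These shares are descriptions and the differences between them were not tested.

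Direction also varied with base composition. Below 45% GC, 67 members had a median log2 ratio of 3.08 from NMPs to day 4 pMN cells, and 11.9% were lower. Between 45% and 50% GC the median was 0.39, between 50% and 55% it was -1.06, between 55% and 60% it was -1.26, and at 60% or more it was -1.23. The intronic elements of the same 5 bins had medians of 3.48, 1.10, -0.60, -1.07 and -0.97. The share called lower was above that of intronic elements in each bin, from 11.9% against 6.19% in the lowest to 66.5% against 52.8% between 55% and 60% and 62.1% against 47.4% in the highest.

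**Figure D3:**
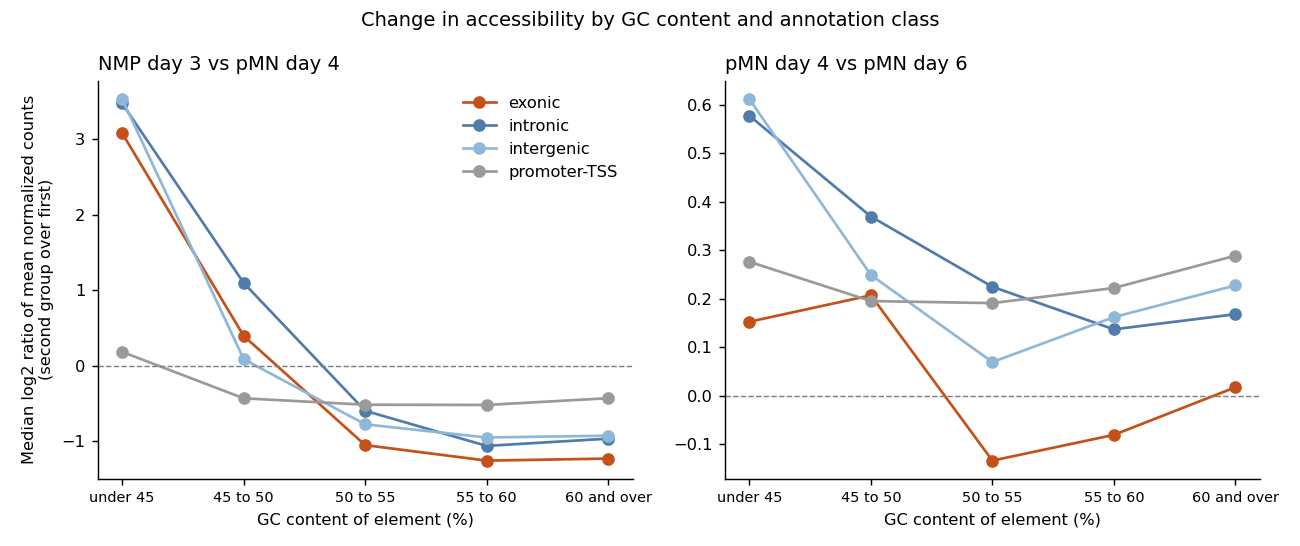
Median log2 ratio (y axis) of exonic, intronic, intergenic and promoter elements by GC bin (x axis, percent) from day 3 NMPs to day 4 pMN cells and from day 4 to day 6 pMN cells. In the first comparison the exonic medians run from 3.08 in the lowest bin to -1.23 in the highest.

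The members that opened most from NMPs to day 4 had almost no reads in NMPs. The element at Dicer1 exon 2 of 27 (chr12:104731490-104732335), in the gene of the enzyme that cuts microRNA precursors, stood at 4.85, 1.35 and 7.54 normalized counts in the 3 NMP samples. In the 6 day 4 pMN samples it ranged from 543 to 715 with a median of 641 normalized counts. Groups without overlap were a condition for naming it. Its log2 ratio was 7.13 (limma coefficient on the deposited scale 5.53, SE 0.17, adjusted p = 3.16e-13). Only 22.2% of its length was in exon, and over the 25 conditions its level had a correlation of 0.0887 with the element at the TSS of Dicer1.

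Sox5 encodes a SoxD transcription factor of neural progenitors, and its exon 2 of 14 held the element at chr6:144154780-144155571 whose sequence is shown above. The NMP samples had 15.8, 12.1 and 19.4 normalized counts, and the 6 day 4 pMN samples 1074 to 1274 with a median of 1153. The log2 ratio was 6.22 (limma coefficient 5.45, SE 0.11, adjusted p = 2.38e-14). Among the named elements this was the one that followed its host most closely, with a correlation of 0.925 with the Sox5 TSS element over 25 conditions, which share libraries and depth.

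A last-exon element of Zfhx4 (exon 11 of 11, chr3:5414366-5415980), a gene of a large zinc finger and homeodomain protein, had 1.21, 0 and 5.38 normalized counts in NMPs. In day 4 pMN samples it ranged from 152 to 328 with a median of 204 normalized counts. The groups lay far apart, with a log2 ratio of 6.67 (limma coefficient 4.51, SE 0.27, adjusted p = 4.02e-10).

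Toward day 4 p3 the leading gains were in Spata16, Dicer1 and Casq2. In the 5 day 4 p3 samples Dicer1 had 384, 474, 621, 595 and 487 normalized counts, a log2 ratio of 6.80 to the same NMP samples (limma coefficient 5.20, SE 0.21, adjusted p = 1.74e-12). Casq2 exon 6 of 12 (chr3:102125552-102127665), in the gene of the cardiac calsequestrin that binds calcium, had 19.4, 14.8 and 22.6 normalized counts in NMPs and 805, 1172, 1504, 1252 and 1572 in p3. Its log2 ratio was 6.06 (limma coefficient 5.35, SE 0.19, adjusted p = 3.28e-13), and 9.41% of its length was in exon. Spata16 exon 9 of 10 (chr3:26924076-26924568) rested on 3 reads in all NMP samples, at 0, 2.7 and 1.08 normalized counts, against 103, 125, 222, 217 and 248 in p3. The ratio was 168, with a 95% counting interval of 57.4 to 818 that covers counting error only.

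The members that closed most from NMPs to day 4 did so toward both pMN and p3, each set against the same 3 NMP samples. The Prr19 element (exon 3 of 3, chr7:25303403-25304108), in the gene of a meiotic crossover factor, had 507, 777 and 764 normalized counts in NMPs. In day 4 pMN samples it ranged from 1.07 to 11 with a median of 6.14 normalized counts, a log2 ratio of -6.82 (limma coefficient -5.44, SE 0.25, adjusted p = 2.31e-11), and in day 4 p3 samples it was 16.1, 13.3, 10.5, 7.09 and 9. The gap between NMPs and either NP type was wide, and groups without overlap were a condition for naming the element. Its mean over all samples was 36.9 normalized counts. It thus passed the limit on the mean through its NMP levels, and a lower call was nearly given.

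Tmem161a exon 10 of 11 (chr8:70180538-70182399) was even across the NMP samples, at 844, 820.1 and 854 normalized counts, and ranged from 22.1 to 42.6 in day 4 pMN with a median of 33.3. Its log2 ratio was -4.72 (limma adjusted p = 2.99e-12). Pex26, a gene of peroxisome assembly, had an element in its last exon (5 of 5, chr6:121193727-121195286) with 794, 825 and 532 normalized counts in NMPs and 20.7 to 33.4 in day 4 pMN, with a median of 29.5. The log2 ratio was -4.66 (limma adjusted p = 1.02e-11). These elements were also the ones that fell most toward p3, with log2 ratios of -4.78 for Tmem161a and -4.39 for Pex26. Their means over all samples were 67.1 and 52.7 normalized counts. They too passed the limit on the mean through their NMP levels.

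**Figure D4:**
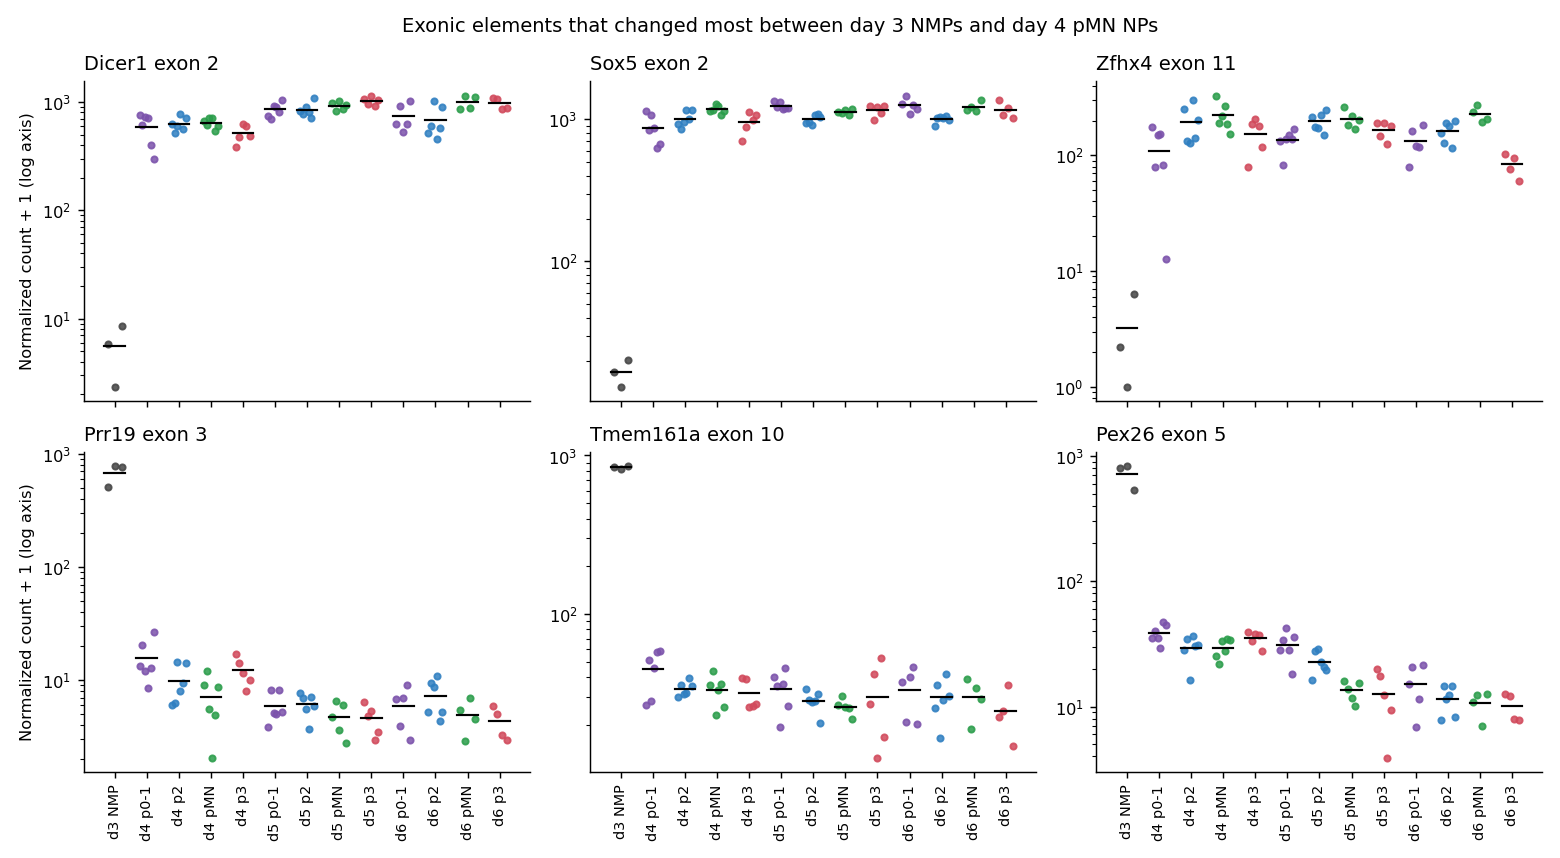
Normalized count plus 1 (y axis, log scale) of 6 exonic elements in every sample, by day and cell type (x axis). Dicer1 exon 2, Sox5 exon 2 and Zfhx4 exon 11 sit under 20 normalized counts in the 3 NMP samples, and Prr19 exon 3, Tmem161a exon 10 and Pex26 exon 5 sit above 500 there.

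Some hosts carried several elements. Sptbn4, the gene of a beta spectrin of the axonal membrane skeleton, held 7, the most of any gene, all with a coding midpoint. From NMPs to day 4 pMN cells 6 of them were lower, with log2 ratios of -1.90 (exon 14 of 19), -3.90 (exon 10 of 19), -2.45 (exon 6 of 19), -1.80 (exon 17 of 36), -2.29 (exon 16 of 36) and -1.29 (exon 14 of 36). The 7th, at exon 4 of 19, had a mean of 20.6 normalized counts and was not tested. The element at exon 14 of 36 was no longer called when samples were centered on their median, and the other 5 were. Those 5 had means of 42.2 to 96.0 normalized counts over all samples. Their NMP levels helped them past the limit on the mean, which favors lower calls. Elements of 1 gene share their surroundings and are not independent of each other.

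Kif1b, the gene of a kinesin motor, held 5 elements. The one in its last exon at chr4:149176669-149177901 was higher in day 4 pMN (log2 ratio 3.45, limma adjusted p = 9.5e-09) and in day 4 p3 (log2 ratio 3.66, adjusted p = 1.3e-08), and the other 4 were under the limit on the mean in both of these comparisons and not tested there. Ryr1, which encodes the ryanodine receptor of skeletal muscle, held 4, as did Tenm4 and Wwp2. Its elements at exon 91 of 106 and exon 48 of 106 were lower in day 4 pMN, with log2 ratios of -1.86 and -2.09.

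Most elements in zinc finger and protocadherin genes were too low to be tested, and of those tested more were lower than higher, as among all members, of which 55.5% were lower. Of all elements tested, 27.3% were lower and 21.2% higher, and 15.8% and 23.5% after centering. Zinc finger genes (symbols starting Zfp, Zscan, Zkscan or Znf), whose proteins bind DNA through zinc fingers and whose last exons are often long and repetitive, held 73 members in 67 genes. Of 30 tested from NMPs to day 4 pMN, 18 were lower and 4 higher, and after centering 14 were lower and 4 higher. Reads can be shared among such genes, so single values here are uncertain. Zfp493 exon 4 of 4 (chr13:67786200-67787267) went against the majority, with 7.27, 4.05 and 19.4 normalized counts in NMPs and 125, 284, 322, 319 and 283 in day 4 p3 (log2 ratio 4.70, limma adjusted p = 6.3e-09). Of 19 protocadherin elements, in genes of neuronal adhesion molecules, 6 were tested, 5 were lower and 0 higher. After centering 4 were lower. Fewer passed the limit in the comparisons among NPs, where 12 to 19 zinc finger and 2 or 3 protocadherin elements were tested. Some may thus have passed it through their NMP levels, and for these a lower call is nearly given. Counts without the limit were not made for these families.

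Smaller families depended on the scaling. From NMPs to day 4 pMN, 27.3% of all elements tested were lower and 21.2% higher, and 15.8% and 23.5% after centering. The small counts below were not tested against these shares, and some lie near them. Axon guidance genes held 32 members, of which 14 were tested from NMPs to day 4 pMN, with 4 lower and 1 higher, and 2 lower and 1 higher after centering. Of 25 members in genes of collagens, laminins, integrins and other matrix proteins, 6 were tested, 3 were lower and 0 higher, and 2 were lower after centering. Neural progenitor genes had 2 higher and 4 lower of 10 tested, and 3 and 3 after centering. Hox genes had 2 of 6 lower, dorsoventral patterning genes 3 of 4, hedgehog pathway genes 2 of 2 and floor plate genes 1 of 3, and none of these remained called after centering. Neuronal genes had 1 of 3 lower with and without centering. The 1 tested element in NMP and posterior genes was not called, and none of the 3 in pluripotency genes (among them Pou5f1 exon 3) passed the limit on the mean.

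Named members of these families showed the size of such changes. Foxa1 exon 2 of 2 (chr12:57542092-57543437), in the gene of a pioneer transcription factor of the floor plate, had a log2 ratio of -1.13 from NMPs to day 4 pMN (limma adjusted p = 6.1e-06), and was not called after centering. Kif7 exon 4 of 18 (chr7:79709971-79711037), in the gene of a ciliary regulator of Gli proteins, had a log2 ratio of -1.30 (limma adjusted p = 3.8e-08), and was not called after centering either. Hoxb8 exon 2 of 2 (chr11:96282364-96287735) had 2190.3, 2095 and 2277 normalized counts in NMPs, 1570.4 to 1967 in day 4 pMN and 943, 982, 1093, 760.2 and 1035 in day 4 p3. Its log2 ratio from NMPs to p3 was -1.18 (limma adjusted p = 9.5e-08), it was not called after centering, and the 3 groups did not overlap.

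From day 4 to day 6 fewer members changed. In pMN, 1022 members were tested, of which 113 were higher at day 6 (11.1%) and 82 lower (8.02%), where 17.8% and 7.37% of all elements were. The members' median log2 ratio was -0.02 and that of all elements 0.25. Centering the samples moved the latter to -0.09 and turned the split to 85 higher and 172 lower among members, beside 13.6% and 12.5% of all elements. The voom fit of recovered reads gave 88 and 156, beside 14% and 12%. In p3, 101 of 1034 were higher and 83 lower, against 16.7% and 7.43% of all elements. After centering these were 86 and 157, beside 13.7% and 11.2% of all elements, and with voom 83 and 137, beside 12.7% and 10.6%. Without the limit on the mean, 449 of all 3511 members were higher and 609 lower in pMN, beside 19.9% and 16.8% of all elements, and 418 and 577 in p3, beside 19.1% and 13.6%. Whether more members rose or fell over these days therefore depended on the scaling. Of the members higher at day 6, 49 were called in both types (43.4% of those of pMN, 48.5% of those of p3). Of those lower, 47 were (57.3% and 56.6%). Such overlaps were not counted over all elements, so whether members differ from them in this is not known.

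Abat, the gene of the enzyme that degrades the neurotransmitter GABA, held the largest gain in pMN, in its last exon (15 of 15, chr16:8619424-8620450). The 6 day 4 pMN samples ranged from 12.2 to 40.9 normalized counts with a median of 27.7, and the 4 day 6 samples had 567, 1136, 498 and 1328. Its log2 ratio was 5.05 (limma coefficient 4.47, SE 0.29, adjusted p = 1.30e-08). In p3 the same element went from 22.2, 34.1, 118, 68.8 and 133 to 1627, 1798, 1436 and 1925, a log2 ratio of 4.49 (limma adjusted p = 1.11e-06). In day 6 p0-1 it had 258, 479, 302, 193 and 567 normalized counts, so day 6 samples of all 3 types were above every day 4 sample of pMN and p3. Within pMN and within p3 this was a condition for naming the element.

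Meg3, a maternally expressed noncoding RNA of an imprinted locus, had an element in exon 5 of 5 (chr12:109559821-109560761). In day 4 pMN it ranged from 41.3 to 75.1 normalized counts with a median of 55, and at day 6 it had 1410.1, 1752, 989 and 1539 (log2 ratio 4.61, limma adjusted p = 2.69e-10). In p3 it rose from 20.2, 13.3, 17.1, 21.3 and 12.7 to 228, 214, 147 and 148. Its level had a correlation of -0.81 with the element at the Meg3 TSS over the 25 conditions.

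Ints10 exon 18 of 18 (chr8:68827875-68828160), in the gene of an Integrator subunit, was even within groups, at 4.26 to 10.3 normalized counts in day 4 pMN (median 8.20) and 249, 245, 267 and 243 at day 6. Its log2 ratio was 5.00 (limma adjusted p = 1.78e-10). Among the 3 largest gains in p3 were also Alg8 exon 13 of 13, in the gene of a glucosyltransferase of protein glycosylation, with 10.1, 7.58, 7.89, 5.06 and 11.2 normalized counts at day 4 and 242, 339, 240.2 and 346 at day 6 (log2 ratio 5.12, limma adjusted p = 4.71e-08), and Cep170 exon 20 of 20, in the gene of a centrosomal protein, with a log2 ratio of 5.08 (adjusted p = 3.51e-07).

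Losses were led in pMN by Abca8b and Fmn2. Abca8b exon 38 of 38 (chr11:109932946-109933573), in the gene of an ABC transporter, ranged from 195 to 274 normalized counts at day 4 (median 227) and had 4.48, 1.88, 6.01 and 5.84 at day 6. Its log2 ratio was -5.66 (limma adjusted p = 1.99e-10). Fmn2 exon 2 of 18 (chr1:174536352-174537976), in the gene of an actin-nucleating formin, contained a transcript start of the larger annotation. It ranged from 493.3 to 776 normalized counts at day 4 (median 623) and had 17.9, 39.4, 25.1 and 54.9 at day 6 (log2 ratio -4.20, limma adjusted p = 2.40e-09).

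In p3 the Fmn2 element did not close. It had 123, 110.0, 322, 231 and 339 normalized counts at day 4 and 208, 381, 204 and 439.9 at day 6, which overlapped. The other named losses were Ccdc117 exon 5 in pMN (log2 ratio -3.30) and, in p3, Gm31108 exon 2 (-3.20), Zfp760 exon 6 (-2.86) and Gpnmb exon 10 (-2.64). Gpnmb, the gene of a transmembrane glycoprotein, had 575, 699.6, 559, 473 and 537 normalized counts in day 4 p3 and 72.6, 124, 65.8 and 102 at day 6.

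Hoxd3 exon 3 of 3 (chr2:74745363-74747451) was the Hox element that varied most. It ranged from 416 to 576 normalized counts in day 4 pMN, with a median of 535, and had 1164, 929, 1215 and 837 at day 6. The log2 ratio was 1.03 (limma adjusted p = 8.0e-06). The groups did not overlap, and it was not called after centering or with voom.

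**Figure D5:**
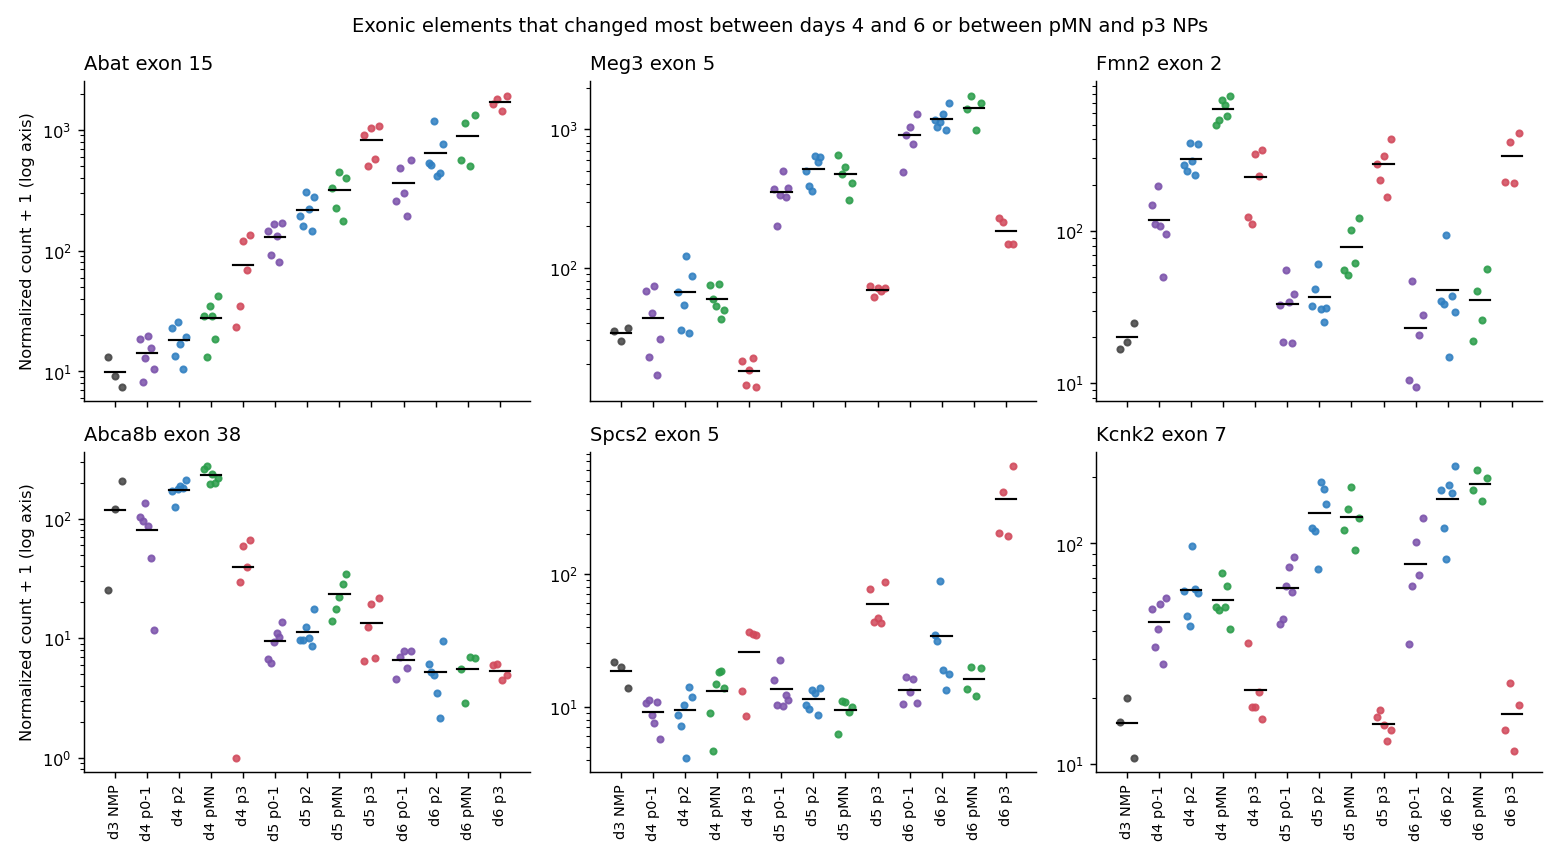
Normalized count plus 1 (y axis, log scale) of 6 exonic elements in every sample, by day and cell type (x axis). Abat exon 15 and Meg3 exon 5 rise with day, Fmn2 exon 2 and Abca8b exon 38 fall in pMN, and Spcs2 exon 5 and Kcnk2 exon 7 separate p3 from pMN at day 6.

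The members that distinguished pMN, which gives rise to motor neurons, from p3, which gives rise to ventral interneurons, were more numerous at days 5 and 6 than at day 4, as were all elements that did. At day 4, 11 of 1016 members were higher in p3 and 29 lower, against 1.93% and 6.11% of all elements. At day 5, 56 of 1003 were higher and 75 lower, against 7.04% and 12.2%. At day 6, 74 of 1012 were higher (7.31%) and 98 lower (9.68%), against 10.4% and 15.6%. With samples averaged over SAG, 37 members were higher and 67 lower at day 6, beside 1878 and 3449 of all 33667 elements tested. In each comparison the share of members called was under the background. Without the limit on the mean, 87 of all 3511 members were higher in p3 and 169 lower at day 4 (4.14% and 8.77% of all elements), 292 and 414 at day 5 (11.9% and 17.7%) and 307 and 387 at day 6 (13.5% and 16.5%). Of the members higher in p3 at day 5, 44 were also higher at day 6 (78.6% of the day 5 list, 59.5% of the day 6 list), and of those lower 61 were (81.3% and 62.2%). These overlaps were not counted over all elements either.

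At day 6 the leading members in favor of p3 were in Spcs2, Rnase4 and Ago3. Spcs2 exon 5 of 5 (chr7:99837471-99838253), in the gene of a signal peptidase subunit, had 12.6, 18.8, 11 and 18.7 normalized counts in pMN and 203, 407, 192 and 641 in p3 (log2 ratio 4.56, limma adjusted p = 3.24e-05). Rnase4 exon 2 of 2 (chr14:51104334-51105329), in the gene of a secreted ribonuclease, had 7.17, 8.45, 12 and 16.3 in pMN and 195, 244, 178 and 333 in p3 (log2 ratio 4.43, limma adjusted p = 6.54e-06). The last exon of Ago3, an Argonaute gene, had 13.4, 22.5, 22 and 36.2 in pMN and 345, 550.3, 379 and 703 in p3 (log2 ratio 4.39, limma adjusted p = 6.79e-06). In all 3 elements the p3 samples of replicate 3 were above those of replicate 2 at either SAG concentration.

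The Usf3 element whose sequence is shown above had 11.7, 39.4, 4.01 and 51.4 normalized counts in day 6 pMN and 140.2, 559, 211 and 763 in p3 (log2 ratio 3.97, limma adjusted p = 1.15e-03). It too was higher in the samples of replicate 3 than in those of replicate 2, in both types.

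In favor of pMN were Afap1l1, Kcnk2 and Adamtsl1, each in its last exon. Afap1l1 exon 19 of 19, in the gene of an actin-filament-associated protein, had 898, 809, 753 and 726 normalized counts in pMN and 97.3, 84.4, 26.6 and 21.4 in p3 (log2 ratio -3.79, limma adjusted p = 3.36e-05). Kcnk2 exon 7 of 7 (chr1:189209096-189210121), in the gene of a background potassium channel, had 174, 214, 155 and 197 in pMN and 13.2, 22.4, 10.4 and 17.5 in p3 (log2 ratio -3.55, limma adjusted p = 7.12e-06). Adamtsl1 exon 29 of 29 (chr4:86426444-86427379), in the gene of a matrix glycoprotein, had 403, 594, 188 and 311 in pMN and 41.2, 66.1, 28.9 and 18.4 in p3 (log2 ratio -3.27, limma adjusted p = 1.52e-04), and missed the threshold with voom (adjusted p = 0.0135). No pMN sample overlapped a p3 sample in these elements, which was a condition for naming them.

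The Gabra6 element, in the gene of a GABA receptor subunit, had 489, 338, 424 and 312 normalized counts in pMN and 36.3, 39.7, 90.1 and 33.0 in p3 (log2 ratio -2.97, limma adjusted p = 3.04e-05). Wnt5a exon 3 of 5 (chr14:28512869-28513422), in the gene of a secreted Wnt ligand, had 243, 129.6, 185 and 129.6 in pMN and 49.5, 36.6, 61.2 and 50.5 in p3, a smaller difference (log2 ratio -1.80, limma adjusted p = 3.8e-04) without overlap. In NMPs it was lower than in any of these samples, at 10.9, 12.1 and 15.1 normalized counts.

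Between p0-1 and pMN at day 6, 59 of 1005 members were higher in pMN (5.87%) and 24 lower (2.39%), against 9.32% and 3.08% of all elements. Without the limit on the mean these were 223 and 84 of all 3511, beside 10.4% and 3.37% of all elements. With samples averaged over SAG, 22 members were higher and 10 lower, beside 1145 and 345 of all 32346 elements tested. Abcb9 exon 12 of 12 (chr5:124061297-124062704), in the gene of a lysosomal peptide transporter, had 29.4, 61.5, 33.0, 31.5 and 43.6 normalized counts in p0-1 and 385, 566, 441 and 663 in pMN (log2 ratio 3.69, limma adjusted p = 1.07e-05). The next were Lrrfip2 (log2 ratio 3.17) and Susd6 (3.03). In the other direction, Irs1, the gene of an insulin receptor substrate, had 929, 1262, 712, 874 and 992 in p0-1 and 226, 201, 101 and 149 in pMN (log2 ratio -2.49, limma adjusted p = 4.47e-05).

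Robo1, a receptor for the axon guidance cue Slit, had an element in exon 3 of 29 (chr16:72904325-72904977) with 102, 171, 250.2, 224 and 262 normalized counts in day 6 p0-1 and 58.3, 33.8, 45.1 and 14 in pMN (log2 ratio -2.42, limma adjusted p = 9.21e-04), and missed the threshold with samples averaged over SAG (adjusted p = 0.0107). In p2 it ranged from 66.3 to 161 with a median of 148, and in p3 it had 11.5, 5.09, 2.31 and 1.94. The order at day 6 was thus p0-1, p2, pMN and p3, and p0-1 and p2 overlapped. Slc1a3, the gene of a glial glutamate transporter, had 154, 168, 327, 298 and 422 in p0-1 and 81.6, 50.7, 48.1 and 37.4 in pMN (log2 ratio -2.33, limma adjusted p = 6.89e-04).

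The concentration of SAG within a cell type made no called difference among members. At day 5, 0 of 1001 members were called by limma between 0 and 10 nM in p0-1 (0.00318% of all elements tested in either direction), 0 of 985 between 10 and 100 nM in p2, 0 of 973 between 100 and 500 nM in pMN and 0 of 995 in p3, where 0% of all elements were called in each. At an unadjusted p under 0.05 there were 104, 109, 21 and 4 members, beside 4741 of 31401, 3721 of 32103, 855 of 32239 and 153 of 31179 elements in all. The voom fit also called 0 in each. With the replicate number as a block, limma called 7 of 1001 members in p0-1 and 6 of 985 in p2, where 317 of 31401 and 522 of 32103 elements were called.

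In the 8 comparisons between days and cell types, 1594 members were tested at least once and 1122 of them were called at least once (70.4%), against 60% of all elements, 74.5% of intronic and 23.6% of promoter elements. A call in 4 or more comparisons was made for 116 members (7.28%) and for 11.2% of all elements. Over the 25 conditions, the level of a member with a mean above 100 was set against the element at the TSS of its host. The median correlation was 0.357 over 646 members with such an element, against 0.0447 over 6303 intronic elements, and 22.6% of members and 8.84% of intronic elements were above 0.7. The conditions share libraries, depth and base composition, and these correlations are descriptions.

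Short motifs were looked for in the central 300 bases of every element, on both strands, as plain letters: TGTTTAC for FOX factors, TAATTA for homeodomain factors, ACAATG for SOX factors, CATATG or CAGATG for E-boxes of bHLH factors, TTTATNG for CDX and HOX factors, GGGCGG for SP and KLF factors, CNAGGNGGC for CTCF and GTTGCC for RFX factors. None of these strings contains another. A match is a description of letters and not of a bound site. Exonic elements held GGGCGG in 20.3% and the CTCF string in 10.0% of cases, against 14.2% and 6.15% of all elements, and ACAATG in 15.9% against 21.1%. The E-box strings were in 28.0% of members and 29.3% of all elements.

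Members that moved differed in these letters by direction, as did all elements that moved. GGGCGG was in 35.2% of the members lower in day 4 pMN than in NMPs and in 5.56% of those higher. Of all elements called lower and higher it was in 31.7% and 6.24%. ACAATG was in 6.21% of the lower and 24.6% of the higher members, and in 8.37% and 32.1% of all such elements. The mean GC was 58.1% in the lower and 46.8% in the higher members, and 54.7% and 46.5% in all such elements. The E-box strings were in 53.1% of the 98 members lower in p3 than in pMN at day 6, where 38.6% of all elements lower there held one, and in 18.9% of the 74 higher members. Of all elements higher there, 27.0% held one. They were in 49.6% of the 113 members that rose in pMN from day 4 to day 6, against 37.8% of all elements that did. TGTTTAC was in 4.05% of the members higher in p3 at day 6 and in 10.5% of all elements higher there. Of the windows printed above, Sox5 held the SOX and an E-box string, Prr19 an E-box string, the SP and KLF string and the RFX string, Patz1 an E-box string and the CTCF string, and Usf3 and Gabra6 none.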

How the data were processed

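CaTS-ATAC libraries of 67 samples were compared. The authors called peaks with MACS on the mm10 genome, merged them into consensus elements, annotated these with HOMER against RefSeq genes, and deposited for each sample the log2 values of a DESeq2 variance-stabilizing transformation. These log2 values were inverted to normalized counts, and dividing by the step of 1 read gave whole reads (within 0.0001) for 100% of values below 1000 reads. Members and gene lists were chosen with earlier results of these data known. The deposited table gave no genes of its own, so the host is the gene whose exon the annotation names.

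Depth was 9298160 to 29985325 reads in elements. Intervals cover counting error only.

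Linear models were fitted in limma 3.58.1 (R 4.3.3) with a trend of variance on mean, on all elements with a mean above 100 normalized counts. Named elements were, by rule, the 3 called elements without overlapping samples that had the largest change in each direction of 6 comparisons, the 5 strongest and 3 most even, the strongest and most variable of each gene list, and those of the 3 genes with most elements (Ryr1 taken alphabetically among 3 genes with 4). Elements printed as sequence were chosen by rank in the same way. Permutation tests used 100000 resamples in NumPy 2.4.6 with pandas 2.3.3 (Python 3.11.15), and their p-values were adjusted with SciPy 1.17.1. Positions of exons and transcript starts came from RefSeq (GRCm38.p6) and GENCODE vM21, read with pysam 0.24.0 and samtools 1.23.1. The fits were tested on simulated data first.

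Marker genes were read at the element centered within 1000 bp of their TSS, since wide TSS elements can carry another annotation. Replicate numbers were those of the sample titles, which differ from those of the descriptions in 15 samples. Same-numbered samples deviated together (every correlation above 0.1, the lowest 0.307) between days 4 and 6 in pMN, between pMN and p3 at days 5 and 6, between p0-1 and pMN at day 6, and between SAG concentrations in p0-1 and p2. In the others at least 1 pair was at or under 0.1 (from pMN to p3 at day 4 the median was 0.449 and the lowest -0.0609), or there were only 2 pairs. Alternatives were no limit on the mean, a 4-fold limit, a limit on the VST scale, a replicate block, centering, limma voom on the recovered reads, averaging over SAG and leaving out each sample.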

Additional observations from a re-analysis of the deposited data

Results flagged for a closer look

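The exonic minus intronic median level of 1 day 5 p0-1 sample stood apart from its group. The sample of 0 nM SAG, replicate 2, had a difference of 0.482 on the log2 scale, and the other 5 samples lay between 0.279 and 0.350. It was the only such sample in 72 groups of values examined, where chance marks about 1 in 20 groups.

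The change from day 4 to day 6 differed between p3 and pMN for 2 of the 6 named elements that could be tested. For Meg3 exon 5 the change in p3 minus that in pMN was -1.56 on the log2 scale (limma interaction, SE 0.26, adjusted p = 0.000231). Every day 6 sample of both types was above every day 4 sample of the same type, in pMN by the rule that named the element. For Fmn2 exon 2 it was 4.33 (limma interaction, SE 0.43, adjusted p = 1.44e-06), with a fall in pMN and overlapping samples in p3. For Abat exon 15 it was 0.03 (SE 0.51, adjusted p = 0.984). Over all members 95 of 1029 had an interaction at an adjusted p under 0.01 (9.23%), where 13.4% of all elements did, 34 of them with the higher change in p3 and 61 with the lower. This fit was chosen after seeing the data. The 6 elements were named for the size of their change in pMN or p3 in these same samples, which favors a difference between the types.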

How the results depend on the processing

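The 36 results on the elements with the largest changes, 3 in each direction of 6 comparisons, were tested again in 495 alternatives. They kept their direction in all of these and their side of the threshold in all but 2. Adamtsl1 missed it with voom (-3.28, adjusted p = 0.0135), and Robo1 with samples averaged over SAG (-2.47, adjusted p = 0.0107). Cases in which an element's mean fell to 100 normalized counts or less were not tested and are not among the 495. Thus 9 results could be read without replicate 3 of day 4 p3 at 100 nM SAG, against 12 without replicate 1. The settings that changed the limits themselves are not among the 495 either. The counts of members called followed the limits set. In the order NMP to pMN, NMP to p3, pMN and p3 from day 4 to 6, pMN to p3 at days 4, 5 and 6, and p0-1 to pMN, they were 2220, 2005, 1058, 995, 256, 706, 694 and 307 without the limit on the mean, by construction since more elements were tested, and 259, 241, 70, 58, 5, 36, 73 and 17 with a limit of 2 on the log2 ratio. Averaging over SAG, which leaves fewer samples, gave 104 for pMN to p3 at day 6 (5327 of all elements, against 8734) and 32 for p0-1 to pMN (1490, against 4012). Leaving out each sample in turn gave 736 to 861, 696 to 831, 191 to 205, 178 to 194, 39 to 46, 124 to 132, 161 to 187 and 66 to 91, and 0 to 0 for the SAG comparisons.

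With the replicate number as a block, 7 members were called between SAG concentrations in p0-1 and 6 in p2, against 0 without it, where calls over all elements went from 1 to 317 and from 0 to 522. It moved no other count by over 1.5 times, the largest changes being to 188 for pMN to p3 at day 6 and 99 for p0-1 to pMN. Averaging over SAG together with the block, added after seeing the data, gave 189 and 102. Where the numbers were not shown to pair the samples, the block gave 834 and 770 for the NMP comparisons, 188 for p3 from day 4 to 6 and 40 for pMN to p3 at day 4.

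The exonic minus intronic median level turned to -0.0451 within bins of GC and width. Its difference between p3 and other NPs, not past the threshold in any setting, was 0.0786 with a mean above 100 and 0.0120 against intergenic elements. The cause was not tested. The ratio of SDs was 0.504 with a mean above 100, and 0.812 to 0.820 without each replicate number. A midpoint in a reference exon held for all 3511 members. A mean of 100 normalized counts limits what could be tested to 29.8% of members.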

Other observations

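The exonic members also differed in where they were lowest. The lowest group mean was in day 6 p3 for 659 members (18.8%) and in day 6 pMN for 548 (15.6%), against 11.7% and 9.70% of all elements, and in NMPs for 756 (21.5%), against 37.0% of all elements. Among the 1048 members with a mean above 100, 92 were highest in day 6 p0-1 (8.78%), 77 in day 6 pMN (7.35%) and 68 in day 6 p3 (6.49%), against 16.5%, 12.1% and 10.1% of all elements with such a mean.

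Rn45s and the last exon of Lars2, the 1st and 3rd strongest members, were listed at like proportions in the same samples. In the 5 day 4 p3 samples Rn45s had 13949, 10988, 8779.5, 8752 and 6408 normalized counts and Lars2 6823, 6448, 5022, 5119 and 3656. In the 4 day 6 p3 samples Rn45s had 8601, 5100.4, 8244 and 5599 and Lars2 5051, 2840.1, 4548 and 3157. The samples were in nearly the same order for both elements, and shared reads between ribosomal copies were not examined.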
